A study of Mus musculus with 6 samples.

Results

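The matrix metalloproteinases Mmp2, Mmp3, Mmp9, Mmp13, Mmp14 and Mmp15 and the tissue inhibitors Timp1, Timp2, Timp3 and Timp4 were followed in lung endothelial cells (ECs) of mice with breast cancer metastases. Every probe set to which the annotation of the array gives 1 gene symbol, and that symbol is one of these 10, was taken. This gave 22 of 45101 probe sets, for 9 of the 10 genes and out of 18194 genes with such a probe set. Mmp15 had none under this rule and was not analysed here.

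All 6 samples came from NSG mice, an immunodeficient strain without mature lymphocytes, that were 6 to 8 weeks old at injection. The animals received MDA231-LM2 cells, a human breast cancer line selected for growth in the lung, through the blood. In the shControl group the cancer cells carried a control hairpin RNA, and in the shTNC group a hairpin RNA against TNC, the gene of the matrix protein tenascin C. Lungs were collected on day 20 in both groups. CD31+ cells were sorted after removal of cells with GFP (the cancer cells), CD45, CD11b, EpCAM or CD140a/b, and 2 ng of total RNA per sample was hybridised to 1 Affymetrix mouse array, with 3 arrays in each group. All mice of both groups carried metastases, so no healthy lung enters the comparison. The study reported reduced lung colonization by TNC knockdown cells, and no matching of metastatic load is stated for these arrays. Effects of a smaller load and of TNC loss therefore cannot be told apart here. The hairpin sequence behind the arrays and any pooling of animals are not given in the sources used here. The silenced gene is that of human cells which the sort removed, so no mouse probe set checks the knockdown.

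Matrix metalloproteinases (MMPs) are zinc-dependent enzymes that cut collagens, laminins and other matrix proteins, and most are secreted as inactive precursors that another protease must cleave. TIMPs are small secreted proteins that block their active sites, and TIMP2 also takes part in the activation of pro-MMP2 by the membrane-bound MMP14. In blood vessels this balance is known for its part in basement membrane turnover, vessel sprouting and the release of growth factors from matrix.

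Transcription of several secreted MMPs is classically driven through AP-1 elements close to the start site, while MMP14, TIMP2 and TIMP3 are better known for promoters with GC boxes. The 100 bases before the annotated start are shown for Mmp3 and Mmp13, the genes whose windows hold an AP-1 element, and for Mmp14 and Timp3, whose windows hold a GC box. The sequences are those of RefSeq on GRCm38.p6, written 5′ to 3′ on the strand of the gene, and capitals mark the motif letters. The windows are chr9:7445722-7445821 (+) for Mmp3, chr9:7272414-7272513 (+) for Mmp13, chr14:54431498-54431597 (+) for Mmp14 and chr10:86300312-86300411 (+) for Timp3.
Mmp3: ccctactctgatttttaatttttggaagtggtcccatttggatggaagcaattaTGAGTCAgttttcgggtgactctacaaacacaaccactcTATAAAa
Mmp13: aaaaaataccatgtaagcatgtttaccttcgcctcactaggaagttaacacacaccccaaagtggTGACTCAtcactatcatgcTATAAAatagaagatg
Mmp14: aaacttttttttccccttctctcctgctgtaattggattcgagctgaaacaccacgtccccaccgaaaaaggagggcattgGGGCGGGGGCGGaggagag
Timp3: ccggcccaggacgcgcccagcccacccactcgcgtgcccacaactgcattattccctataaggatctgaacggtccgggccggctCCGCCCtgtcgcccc
The AP-1 element TGACTCA, or TGAGTCA on the other strand, began 46 bases before the start of Mmp3 and 35 bases before that of Mmp13, and both windows also held the TATA box letters TATAAA. The GC box GGGCGG, or CCGCCC on the other strand, stood next to a second copy in Mmp14, and was found once each in Timp1, Timp2 and Timp3. Of the 10 genes, 8 had a window in the table used here, and among these 2 held the AP-1 letters, 4 the GC box and 2 the TATA letters. Over all 32851 such windows the shares were 1.88%, 24.7% and 5.56%. No motif overlapped another in these windows, and a match describes the letters only.

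All values below are log2 levels as deposited, and differences are shTNC minus shControl with the standard error (SE) of limma, an empirical Bayes linear model, and p-values adjusted over all probe sets by the Benjamini-Hochberg method. Levels of different probe sets are not compared with each other, because probes differ in brightness. A probe set was taken as near background when its mean over the 6 arrays lay under 7.48, the 95th percentile of probe sets for olfactory receptors, which the lung endothelium is not known to use. Over the whole array no probe set passed an adjusted p of 0.05 (0 of 45101, 0%; the lowest adjusted p was 0.126), while 5846, or 13.0%, had an unadjusted p under 0.05. The median 95% interval reached 0.25 to either side of a difference, and the number of arrays limits this precision. On the first principal component the array of shControl replicate 2 stood apart at -43.6, against -11.1 and 0.25 for the other control arrays and 16.1 to 21.1 for the shTNC arrays.

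No MMP or TIMP probe set passed the adjusted threshold between shTNC and shControl. Of the 9 genes, each represented by its brightest probe set, 3 were lower and 6 higher in shTNC. The lower share is to be read against 58.3% of all genes. Only Timp3 was lower and only Mmp13 higher at an unadjusted p under 0.05, against 7.12% of all genes lower and 4.54% higher at that level. The groups did not overlap in Timp2 and Timp3 (lower) and in Mmp13 (higher), where 12.4% and 7.36% of all genes did the same. The 6 genes above background were Mmp2, Mmp9, Mmp14, Timp1, Timp2 and Timp3, with a median difference of -0.035 against -0.024 over all genes above background. The direction of this median turned with the probe set taken for a gene, to 0.026 with the mean of its probe sets and 0.035 with the most variable one, and to 0.019 with a lower background level. For all 9 genes the median was 0.020.

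**Figure D1:**
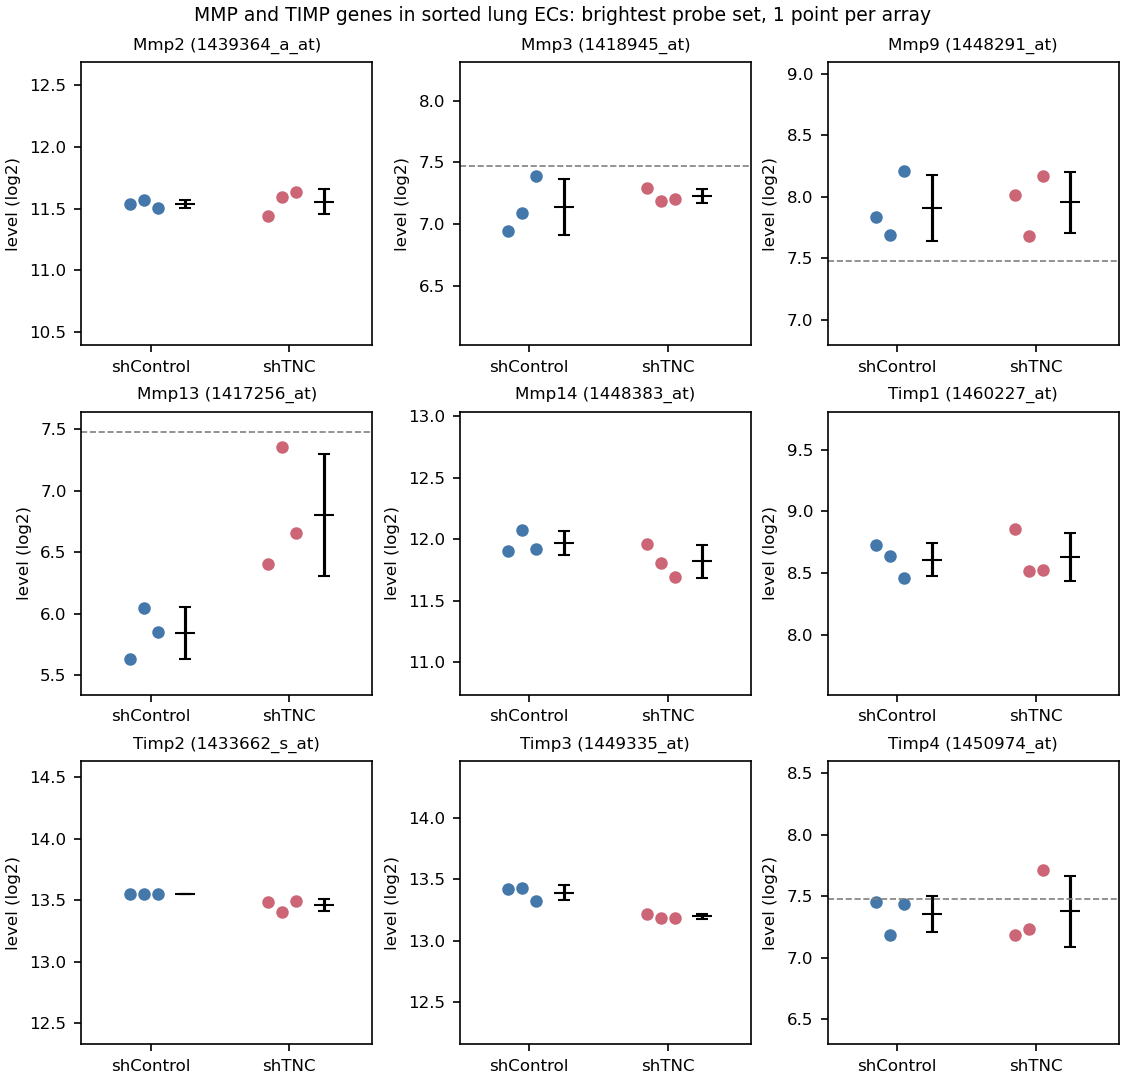
Log2 level of the brightest probe set of each of the 9 genes (y axis) in the 3 shControl and 3 shTNC arrays (x axis), 1 point per array, with the group mean and SD beside the points and the background level of 7.48 as a dashed line. All panels span the same number of log2 units. The groups are apart in Mmp13, which lies under the dashed line on every array, in Timp3 and, by less, in Timp2.

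Among the secreted gelatinases, Mmp2, which cleaves denatured collagen and type IV collagen, was well above background and hardly differed between groups. Its brighter probe set, 1439364_a_at, read 11.54, 11.57 and 11.50 in shControl and 11.44, 11.59 and 11.64 in shTNC. The shTNC arrays lay on both sides of the control arrays. The difference was 0.018 ± 0.089, with a 95% interval from -0.19 to 0.22 (limma adjusted p = 0.95). On the second probe set, 1416136_at, the values were 9.91, 9.62 and 10.07 in shControl and 9.95, 10.10 and 10.18 in shTNC, a difference of 0.21 ± 0.13 (limma adjusted p = 0.52). The groups overlapped there too, through shTNC replicate 1, and leaving out shControl replicate 2 or 3 moved the difference to 0.088 or 0.31.

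Fibroblasts of the lung are a known source of Mmp2. In the sorted cells 12 of 12 fibroblast markers were above background, where 13444 of all 18194 genes were. The mean level of this marker list was 9.93, 9.94 and 9.57 in shControl and 9.82, 9.99 and 10.30 in shTNC. The array highest in the list, shTNC replicate 3, was also the highest in both Mmp2 probe sets, and shTNC replicate 2, shControl replicate 2 and shControl replicate 1 followed in the same order in the list and on 1439364_a_at. On 1416136_at this order did not hold, since shControl replicate 3, lowest in the list, was among the 3 highest and shControl replicate 2 was the lowest. The part of fibroblast RNA in the Mmp2 values was not tested.

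Mmp9, the other gelatinase, is stored in neutrophil granules and is made by activated macrophages. Its brighter probe set, 1448291_at, stood little above background at 7.83, 7.69 and 8.21 in shControl and 8.01, 7.68 and 8.17 in shTNC. Each group held arrays from the lower and from the upper end of this range. The difference was 0.044 ± 0.17, with an interval from -0.34 to 0.43 (limma adjusted p = 0.94). The second probe set, 1416298_at, was near background and differed by 0.0074 ± 0.10.

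Neutrophil markers were measured beside Mmp9. The mean level of the list read 7.65, 7.75 and 8.09 in shControl and 7.90, 7.66 and 8.16 in shTNC, and was highest on the 3 arrays that were highest in Mmp9. This match rested on Ltf, the lactoferrin gene, and without it the list read 7.61, 7.71 and 7.76 in shControl and 7.64, 7.60 and 7.94 in shTNC, with shControl replicate 2 above shTNC replicate 1. Of its 8 measured genes 3 were near background, among them Mpo, and none differed at an unadjusted p under 0.05. The sort excluded CD45+ and CD11b+ cells, and the part of neutrophil RNA in Mmp9 was not tested.

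The stromelysin Mmp3, which cleaves several matrix proteins and activates other pro-MMPs, was near background on all 6 arrays. Its single probe set, 1418945_at, read 6.94, 7.09 and 7.39 in shControl and 7.29, 7.19 and 7.21 in shTNC. All shTNC values fell inside the control range. The measured difference was 0.092 ± 0.12 (limma adjusted p = 0.78).

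The collagenase Mmp13, which cuts fibrillar collagen, gave the largest difference of the 22 probe sets, at levels under background. The probe set 1417256_at read 5.63, 6.05 and 5.85 in shControl and 6.40, 7.35 and 6.66 in shTNC. The groups did not overlap, and the spread of the shTNC arrays was the wider, with replicate 2 close to the background level. The means were 5.84 ± 0.21 and 6.80 ± 0.49 (SD, n = 3 each), a log2 difference of 0.96 ± 0.23 with an interval from 0.43 to 1.49. The limma adjusted p was 0.23 and the exact two-sided permutation p was 0.1, the smallest that 3 against 3 arrays allow. Because none of the 6 arrays was above background, no fold change is given. Without shTNC replicate 2 the difference was 0.69.

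Mmp13 and Timp1 are among the genes for secreted proteins that the study grouped as GSP58, a set chosen there on other samples. The study reported, from arrays of this same comparison, that most genes of this set were lower in ECs of TNC knockdown metastases. Here Mmp13, under background, was higher by 0.96 ± 0.23, and Timp1 differed by 0.026 ± 0.12. The rest of that set was not analysed here, so these values are no check of the study's statement on the whole set. Mmp3, Mmp9, Mmp13 and Mmp14 are also on the study's list of genes for secreted proteins with TNC-induced transcripts in cultured macrophages.

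Mmp14, the membrane-type MMP that activates pro-MMP2 at the cell surface and is known in sprouting endothelial tip cells, was above background on all 3 of its probe sets. The brightest, 1448383_at, read 11.91, 12.08 and 11.91 in shControl and 11.96, 11.81 and 11.69 in shTNC. Replicates 2 and 3 of shTNC lay under every control array, while replicate 1 lay among them. The difference was -0.15 ± 0.10, with an interval from -0.38 to 0.088 (limma adjusted p = 0.57). It was -0.083 without shTNC replicate 3 and -0.091 without shControl replicate 2.

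The dimmer Mmp14 probe set 1440920_at showed the same arrangement more widely. It read 9.22, 9.25 and 9.22 in shControl and 9.25, 8.84 and 8.78 in shTNC, a difference of -0.28 ± 0.13 (limma adjusted p = 0.41). Again shTNC replicate 1 was level with the control arrays, and the difference was -0.42 without it. The remaining probe set, 1416572_at, did not share this and differed by 0.0068 ± 0.095, with control values between 10.29 and 10.48 and shTNC values between 10.27 and 10.45. The 3 probe sets of Mmp14 thus did not give 1 direction.

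Timp1, an inducible inhibitor with a broad range of MMP targets, did not separate the groups. Its only probe set, 1460227_at, read 8.72, 8.64 and 8.46 in shControl and 8.86, 8.51 and 8.53 in shTNC. The highest value was that of shTNC replicate 1 and the lowest that of shControl replicate 3. The difference was 0.026 ± 0.12, with an interval from -0.26 to 0.31 (limma adjusted p = 0.95).

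Timp2, the inhibitor that also bridges pro-MMP2 and MMP14, was measured by 6 probe sets, all far above background, of which 3 were lower and 3 higher in shTNC. The brightest, 1433662_s_at, read 13.55 on each of the 3 control arrays and 13.49, 13.40 and 13.49 in shTNC. All shTNC arrays were below the controls, by a difference of -0.088 ± 0.080 (limma adjusted p = 0.67). On 1420924_at the order was the opposite, with 12.42, 12.38 and 12.28 in shControl and 12.53, 12.54 and 12.51 in shTNC.

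This second Timp2 difference was 0.17 ± 0.083, with an interval from -0.021 to 0.36 (limma adjusted p = 0.43). Both probe sets carry the Timp2 symbol alone, yet their groups were apart in opposite directions. The other 4 differed by -0.017 to 0.13 with overlapping groups. Which transcripts each probe set reads was not tested.

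Timp3, the inhibitor that binds to the extracellular matrix and also blocks ADAM proteases and VEGF receptor 2, was the one family member with lower values in shTNC on all of its 4 probe sets. The brightest, 1449335_at, read 13.42, 13.43 and 13.32 in shControl and 13.22, 13.19 and 13.19 in shTNC. Every shTNC array was below every control array. The means were 13.39 ± 0.060 and 13.20 ± 0.018 (SD, n = 3 each), a difference of -0.19 ± 0.081 or 0.875-fold, with an interval from -0.38 to -0.0056. The limma adjusted p was 0.38 and the exact two-sided permutation p was 0.1, the smallest possible. The unadjusted p stayed under 0.05 without shControl replicate 3 and was above it when any of the other 5 arrays was left out, while the difference stayed between -0.23 and -0.17.

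On the dimmest Timp3 probe set, 1419088_at, the groups were also apart, at 12.69, 12.40 and 12.38 in shControl and 12.23, 12.33 and 12.37 in shTNC. The difference of -0.18 ± 0.11 became -0.082 without shControl replicate 1, the highest array, and the nearest values of the groups were almost equal. The probe sets 1419089_at and 1449334_at differed by -0.085 ± 0.087 and -0.067 ± 0.10, with overlapping groups. The 4 probe sets read 1 gene on the same 6 arrays and are not independent. In bulk samples fewer cells of a type that express a gene and less RNA per cell cannot be told apart.

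Timp4, an inhibitor known mainly from heart and fat, was near background on both probe sets. The brighter, 1450974_at, read 7.45, 7.19 and 7.44 in shControl and 7.19, 7.24 and 7.71 in shTNC, and only shTNC replicate 3 exceeded the background level. The values overlapped throughout. The differences were 0.020 ± 0.15 and, on 1423405_at, -0.040 ± 0.19.

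Counted by probe set, 10 of the 22 lay lower and 12 lay higher in shTNC, where 52.6% of all probe sets were lower. At an unadjusted p under 0.05 there was 1 in each direction, against 6.30% of all probe sets lower and 6.66% higher. Groups did not overlap in 3 lower and 2 higher probe sets, together 5 of 22, where the shares over the array were 10.5% lower, 8.92% higher and 19.4% in either direction. Above background were 17 of the 22 probe sets, with 9 lower and 8 higher and a median of -0.0050.

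**Figure D2:**
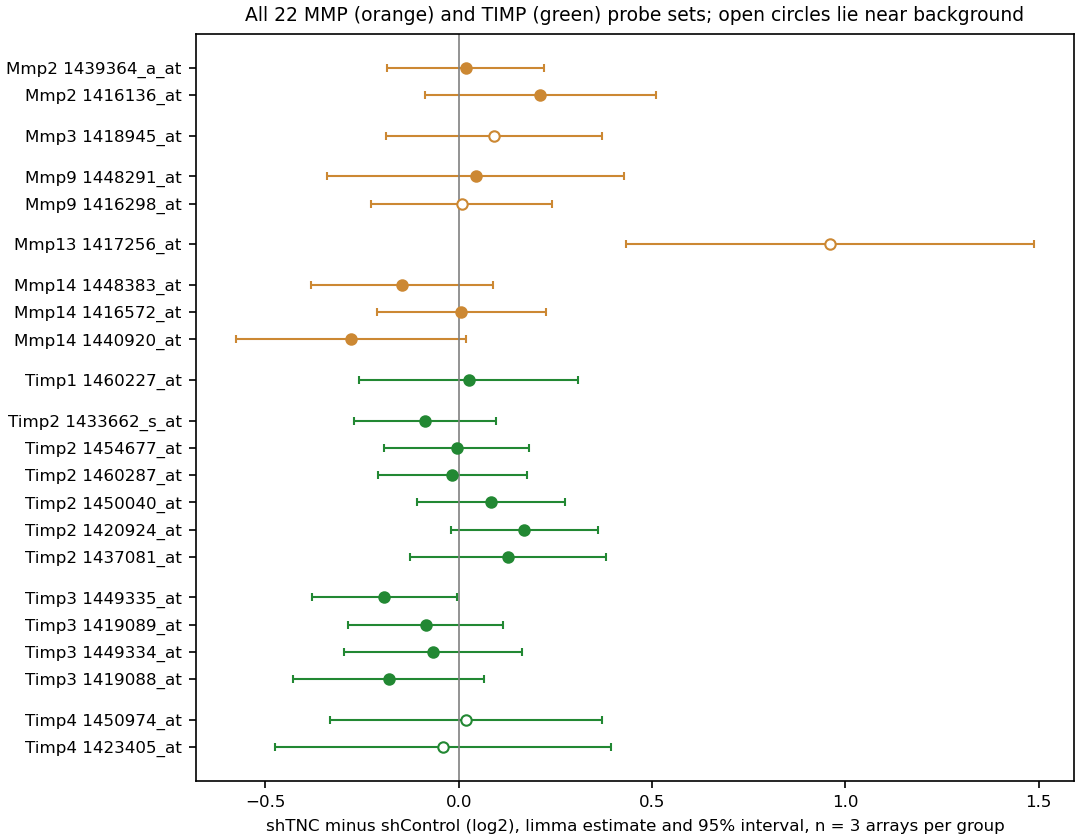
Difference shTNC minus shControl (x axis, log2) of all 22 probe sets (y axis), with limma's estimate as a point and its 95% interval as a line, n = 3 arrays in each group, MMPs in orange, TIMPs in green and open circles near background. The interval of Mmp13 1417256_at lies above 0 and that of Timp3 1449335_at just under 0, and all others cross 0.

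The remaining MMP genes served to place these members within their family. Of 17 listed, 13 had a probe set, 7 of them near background. Of the 6 above background 5 were lower and 1 higher in shTNC, where 56.7% of all genes above background were lower. Over all 13 there were 11 lower and 2 higher, against 58.3% of all genes lower, with a median of -0.13. At an unadjusted p under 0.05 there were 2 lower, Mmp16 and, near background, Mmp10, against 7.12% of all genes, and none passed the adjusted threshold.

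Mmp16, another membrane-type MMP, was the one above background with an unadjusted p under 0.05. Its brightest probe set read 8.52, 8.72 and 8.92 in shControl and 8.28, 8.23 and 8.25 in shTNC, so that the groups did not overlap. The difference was -0.47 ± 0.11, with an interval from -0.73 to -0.21 (limma adjusted p = 0.23). The next brightest Mmp16 probe set differed by -0.31 ± 0.15, and those near background by 0.25 ± 0.21 and 0.095 ± 0.14.

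The membrane-type Mmp24 read 11.21, 11.19 and 11.28 in shControl and 11.15, 10.93 and 11.02 in shTNC, also without overlap. Its difference was -0.19 ± 0.091 (limma adjusted p = 0.41). Mmp17, which is anchored to the membrane by a lipid, differed by -0.26 ± 0.15 with overlapping groups, and Mmp19, a secreted MMP, by 0.14 ± 0.14. The macrophage elastase Mmp12 was near background and read 7.85, 7.67 and 7.22 in shControl and 6.98, 6.84 and 7.65 in shTNC.

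The genes that activate, dock or restrain MMPs were all measured, 19 of 19, and 14 lay above background. Lower and higher values in shTNC were even among those, 7 each, where 56.7% of all genes above background were lower. Their median was -0.00056, and none of them had an unadjusted p under 0.05. The smallest p belonged to Tfpi2, a protease inhibitor of the matrix, which read 9.17, 8.71 and 8.43 in shControl and 8.42, 8.41 and 8.33 in shTNC. The nearest values of the groups were almost equal, and the difference was -0.38 ± 0.17 (limma adjusted p = 0.39).

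Plau, the urokinase that converts plasminogen to plasmin, differed by 0.20 ± 0.13, and Lrp1, a receptor that clears MMPs and TIMPs from the cell surface, by 0.19 ± 0.12. Itgav, the integrin chain that can dock MMP2 with its partner beta3, differed by 0.16 ± 0.12. Groups overlapped in each of these 3, and a dimmer Itgav probe set above background differed the other way, by -0.21 ± 0.11. The furin protease, which removes the propeptide of MMP14, differed by -0.062 ± 0.12. The 2 of 19 genes of this list that were lower at an unadjusted p under 0.05, Pzp and Elane, were near background. Of all genes 7.12% were lower at that level.

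Of 19 listed transcription factors known to act on MMP promoters, 17 were measured, all above background, with 7 lower and 10 higher in shTNC, where 58.3% of all genes were lower. At an unadjusted p under 0.05 there were 1 lower and 2 higher, against 7.12% and 4.54% of all genes, and none passed the adjusted threshold. Of the 4 with the smallest p, 3 were subunits of AP-1, and they did not share a direction.

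Junb read 11.70, 11.76 and 12.10 in shControl and 12.44, 12.45 and 12.24 in shTNC, without overlap, a difference of 0.52 ± 0.13 (limma adjusted p = 0.23). Fos read 13.06, 13.11 and 13.12 in shControl and 13.28, 13.31 and 13.24 in shTNC, also without overlap, and differed by 0.18 ± 0.080 (limma adjusted p = 0.38). Fosl2 differed by -0.48 ± 0.20 (limma adjusted p = 0.37), with overlapping groups on its brightest probe set. Egr1, an immediate-early factor that binds GC-rich promoters, differed by 0.21 ± 0.096 (limma adjusted p = 0.41). Whether these factors bear on Mmp13 or Mmp3, whose windows hold the AP-1 letters printed above and which were both near background, was not tested.

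**Figure D3:**
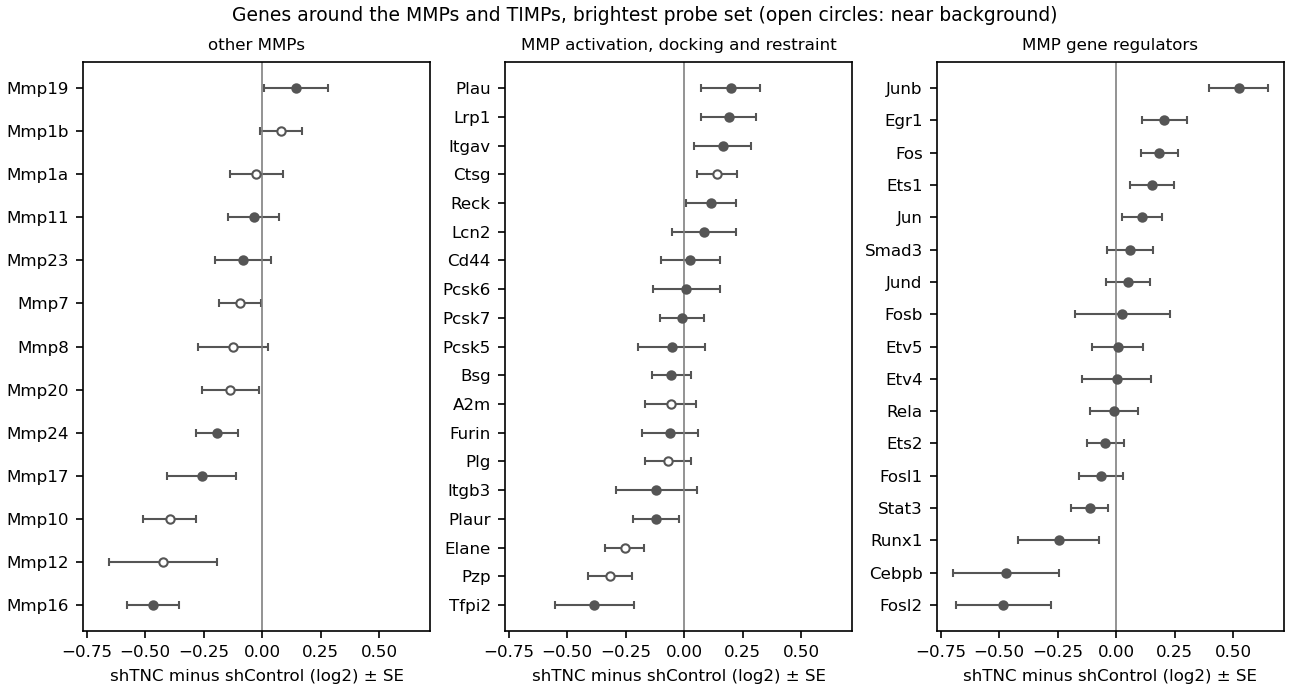
Difference shTNC minus shControl (x axis, log2, point and SE) of the brightest probe set of the other MMPs, of genes for MMP activation, docking and restraint, and of transcription factors known at MMP promoters (y axes), with open circles near background. Most of the other MMPs lie left of 0, the second panel holds 11 genes left and 8 right of 0, and Junb and Fosl2 lie at opposite ends of the third.

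The identity of the sorted cells was checked with markers. The 12 endothelial genes were all above background, with list means of 13.32 to 13.40 in shControl and 13.35 to 13.38 in shTNC. Pecam1, which encodes CD31, differed by -0.028 ± 0.081. The list held 7 genes lower and 5 higher in shTNC, where 58.3% of all genes were lower. Groups did not overlap in Sox17, which differed by 0.24 ± 0.095 (limma adjusted p = 0.35). They were also apart in Emcn, at -0.16 ± 0.093 (limma adjusted p = 0.50). Of the genes behind the excluded proteins, Itgam (CD11b) was near background, while the brightest probe sets of Ptprc (CD45), Epcam, Pdgfra and Pdgfrb were above it, at means over the 6 arrays of 8.21, 7.67, 9.26 and 8.88. A second Pdgfrb probe set was higher in shTNC by 0.78 ± 0.17 without overlap of the groups (limma adjusted p = 0.20), while the brightest differed by -0.0067 ± 0.17. A second Pdgfra probe set above background was lower by -0.47 ± 0.23 with overlapping groups (limma adjusted p = 0.44), and the brightest differed by -0.012 ± 0.25.

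The lists for other lung cells differed among arrays. The macrophage and monocyte list, in which 3 of 11 genes were near background, had means of 8.30 to 8.41 in shControl and 8.02 to 8.26 in shTNC. Its groups did not overlap, though the nearest means, 8.30 and 8.26, were close. Of its genes 9 were lower and 2 higher, where 58.3% of all genes were lower, and of the 8 above background 6 were lower. Values ran from -0.69 ± 0.21 for Chil3 and -0.62 ± 0.14 for Mrc1 to 0.29 ± 0.31 for C1qb and 0.32 ± 0.25 for Ptprc. The remaining lower genes above background, Marco, Csf1r, Cd68 and C1qa, differed by only -0.12 to -0.085. The separation of the list means thus leaned on Chil3 and Mrc1. Macrophages are a known source of Mmp9 and Mmp12, and the part of their RNA in these values was not tested.

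Fibroblast markers were higher in 8 and lower in 4 of 12 genes, where 58.3% of all genes were lower. They ran from Mfap5 at -0.16 ± 0.20 and Col1a1 at -0.13 ± 0.14 to Gsn at 0.64 ± 0.20. The list means were 9.57 to 9.94 in shControl and 9.82 to 10.30 in shTNC. Pericyte and smooth muscle markers had means of 8.75 to 8.90 and 8.85 to 9.06, with 5 genes lower and 5 higher and a median of 0.042, from Kcnj8 at -0.20 ± 0.17 to Myh11 at 0.50 ± 0.096. Mesothelial markers, 3 of 7 near background, had means of 7.77 to 7.90 in the control arrays and 7.67 to 8.81 in the shTNC arrays. Of these genes 5 were higher and 2 lower, with a median of 0.73, against 58.3% of all genes lower. They ran from Krt19 at -0.070 ± 0.27 to Msln at 0.83 ± 0.38, and the smallest p belonged to Gpm6a at 0.76 ± 0.24 (limma adjusted p = 0.28). The epithelial list ranged from 8.65 to 9.43 and from 8.56 to 9.70. Mesenchymal cells are known to make Timp1, Timp2, Timp3 and Mmp14 as well, and the part of these cells in the values of those genes was not tested.

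**Figure D4:**
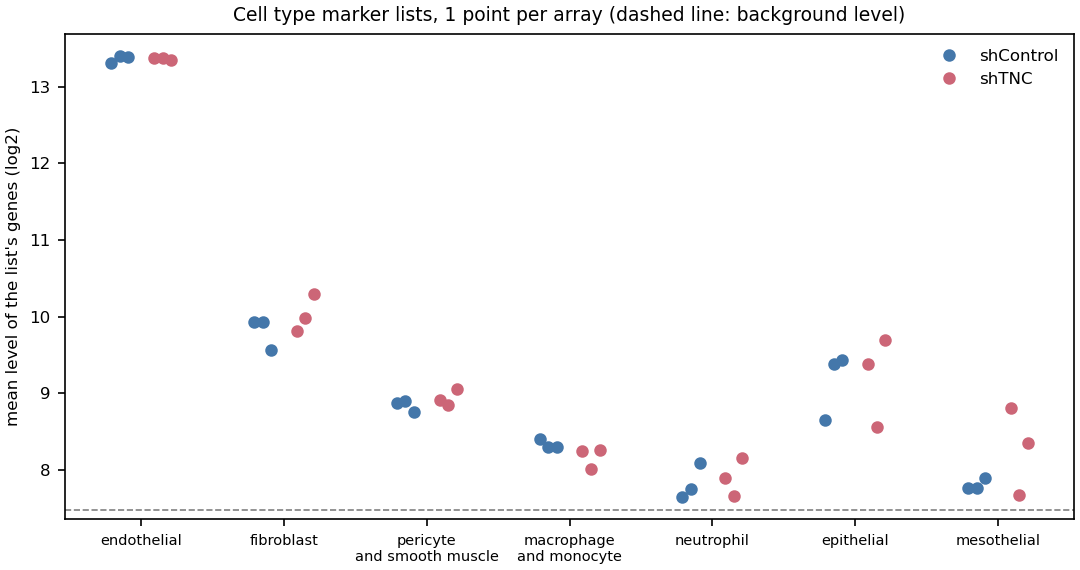
Mean log2 level of each cell type marker list (y axis) by list (x axis), 1 point per array, shControl in blue and shTNC in red, with the background level of 7.48 as a dashed line. Endothelial levels lie within 13.32 to 13.40 on all arrays. Macrophage levels are lower in all shTNC arrays by a small margin that leans on Chil3 and Mrc1, and the other lists overlap between groups.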

How the data were processed

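RNA of sorted mouse lung ECs was hybridised to Affymetrix mouse expression arrays, 3 shControl and 3 shTNC samples with 1 array each, after amplification and labelling from 2 ng of RNA. The authors normalized the raw arrays by RMA in Chipster before deposit, so each deposited value is the log2 level of a probe set, on a scale shared by the arrays. No raw array files were used here. Once sorted, the values of different arrays lay within 0.0700 of each other, and no pair of arrays was identical.

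Probe sets were named through the platform's annotation (34958 with 1 symbol, 932 with several, 9211 with none), and only those with 1 symbol named a gene. A gene was represented by its probe set of highest mean. The background level rests on 44 probe sets for olfactory receptors, and 67.2% of the array was above it. The comparison was a two-sided limma fit (version 3.58.1 under R 4.3.3, with lmFit followed by eBayes and no covariate), and p-values were adjusted by the Benjamini-Hochberg method over the 45101 probe sets, which entered without a filter. The fit was tested on simulated data with independent noise and shifts larger than the differences of all members above background. That test does not show what the fit recovers at differences of their size. Samples are labelled as biological replicates, and the labels do not say whether each came from a separate animal. Where they do not come from separate animals, p-values measure only the spread between these samples.

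The members and lists were chosen with earlier results of these data known. Named were all members with every probe set, up to 4 genes above background with the smallest p of each pathway list, up to 3 of each marker list and the genes of the sort. The Mmp10, Mmp12, Furin, Mpo, Pzp, Elane, Kcnj8, C1qb, Marco, Csf1r, Cd68, C1qa, Mfap5, Col1a1 and Krt19 mentions were added after values were seen. So were the Sftpc and Scgb1a1 mentions, the statements on which arrays order alike and the neutrophil list without Ltf. Listed genes without a single-symbol probe set were not analysed here. Alternatives were quantile normalization, median centring, a filter near background, trended robust eBayes, array weights, the replicate block, other probe sets per gene, other background percentiles and leaving out each array.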

Additional observations from a re-analysis of the deposited data

How the results depend on the processing

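No MMP or TIMP probe set passed the adjusted threshold under any alternative tried. Over all probe sets the count of calls was 0, against 9 with an intensity trend and robust eBayes and 0 to 4 leaving out 1 array, with 2 without shControl replicate 1 and 4 without shControl replicate 3. The 2 member genes at an unadjusted p under 0.05 became 1 with probe sets near background left out, with the mean of a gene's probe sets, with the probe set of highest variance and with the replicate block, and 1 to 2 leaving out an array. Mmp13 kept that level without any single array, at differences of 0.69 to 1.16, whereas Timp3 lost it without any single array except shControl replicate 3, at differences of -0.23 to -0.17. Correlations of deviations were -0.085, 0.041 and 0.10 for equal replicate numbers and -0.11 to 0.074 for unequal ones. With 3 arrays a group these values cannot decide whether the numbers pair the samples. The fit with the replicate block left 0 calls over all probe sets. The median over member genes above background, -0.035, was 0.026 with the mean of a gene's probe sets, 0.035 with the probe set of highest variance and 0.019 with background at the 75th percentile, and -0.094 to -0.030 leaving out an array, the lowest without shTNC replicate 1. Of 22 probe sets 11 kept their direction throughout. Array weights turned Timp1 to -0.012 and Timp4 1450974_at to -0.0073. Leaving out an array turned the other signs: Mmp2 1439364_a_at ranged from -0.022 to 0.075, Mmp3 from -0.0063 to 0.22, Mmp9 1448291_at from -0.067 to 0.19 and 1416298_at from -0.040 to 0.089, Mmp14 1416572_at from -0.035 to 0.064 and Timp1 from -0.087 to 0.085. Timp2 1454677_at ranged from -0.030 to 0.029 and 1460287_at from -0.049 to 0.012, Timp3 1449334_at from -0.11 to 0.00069, and Timp4 1450974_at from -0.15 to 0.12 and 1423405_at from -0.25 to 0.096. The causes were not tested. Signals near background limit Mmp3, Mmp13 and Timp4, and 3 arrays a group limit all.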
